A study of Homo sapiens with 6 samples.

Results

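The 10 genes described here encode secreted glycoproteins and proteoglycans of the extracellular matrix: lumican (LUM), decorin (DCN), biglycan (BGN), serglycin (SRGN), versican (VCAN), fibronectin (FN1), fibulin 1 (FBLN1), fibrillin 1 (FBN1), SPARC and insulin-like growth factor binding protein 7 (IGFBP7). They were taken by name from 58735 gene IDs and were chosen by their role and by the measured FPKM differences between knockout and wild-type libraries in earlier results of these data, so the comparison of the members with wild type is a description without a test. The labels give NCI-N87, an established human gastric carcinoma line, as the source of every library. Total RNA was sequenced in 2 libraries of wild-type cells (WT), 2 of the KRT17 knockout named KO1 and 2 of the KRT17 knockout named KO2. KRT17 encodes the intermediate filament protein keratin 17, and no other genotype, treatment or time is given for any group. The labels do not say whether KO1 and KO2 are clones or guides, how the knockout was made, or whether the replicates were separate cultures. The p-values therefore set a difference only against the variation between replicate libraries, and that variation may be technical.

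Lumican, decorin and biglycan are small leucine-rich proteoglycans that bind collagen fibrils and set their spacing and width. Versican is a large chondroitin sulphate proteoglycan that binds hyaluronan, and serglycin is the proteoglycan of intracellular granules and is also secreted by tumour and endothelial cells. Fibronectin forms fibrils that integrins bind, fibrillin 1 builds the microfibrils on which elastin is laid down, and fibulin 1 binds both fibronectin and elastic fibres. SPARC is a collagen-binding matricellular protein, and IGFBP7 is a secreted protein related to the insulin-like growth factor binding proteins. In the stomach wall most of these genes are known as products of fibroblasts and other stromal cells, while carcinoma cells often make fibronectin themselves.

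Depth was 17599759 to 22852340 reads per library, as recovered from the steps of the deposited FPKM values (fragments divided by exon length and by library size), so 1 read in 1 kb of exon was worth 0.0429 to 0.0544 FPKM. KRT17 was at 746 FPKM in WT, at 2.35 in KO1 and 10.9 FPKM in KO2. The epithelial and line markers did not hold in the libraries labelled as knockouts: 10 of 10 reached 1 FPKM in WT (summed level 5218 to 5386 FPKM) and 6 of 10 in the knockouts (348 to 421). ESRP1, an epithelial splicing factor gene, had 0 reads in all 4 knockout libraries. ERBB2, the amplified receptor gene that NCI-N87 is known for, was at 1387 ± 46.4 FPKM in WT, at 5.82 ± 0.360 in KO1 and 5.29 ± 0.0233 FPKM in KO2 (SD, n = 2 each). The knockout libraries therefore go against the defining markers of the labelled line, every comparison with WT below rests on them, and whether editing of KRT17 accounts for a difference cannot be told apart from whatever else separates these libraries. Replicates of a group were alike, with a chi-square per degree of freedom of 1.80 to 2.46, against 24.5 to 25.3 between KO1 and KO2 and 309 to 357 between WT and knockout libraries.

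The 10 genes together went from 16.0 and 16.6 FPKM in the WT libraries to between 404 and 421 FPKM in the 4 knockout libraries, or from 0.0247% and 0.0260% of reads to between 0.204% and 0.217%. In bulk RNA, fewer cells of a type and less RNA per cell cannot be told apart. Serglycin, IGFBP7, fibulin 1, fibronectin, lumican, fibrillin 1 and decorin were above 5 FPKM in each knockout library, and biglycan, versican and SPARC were under 0.1 FPKM in all 6 libraries. For 8 of the 10 genes all 4 knockout libraries lay above both WT libraries, which was so for 39.9% of all genes tested. The rule of choice used this contrast, so nothing is read from that count. Of the 10 genes, 7 passed the filter of at least 1 FPKM in 2 or more libraries, and BGN, VCAN and SPARC did not.

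**Figure D1:**
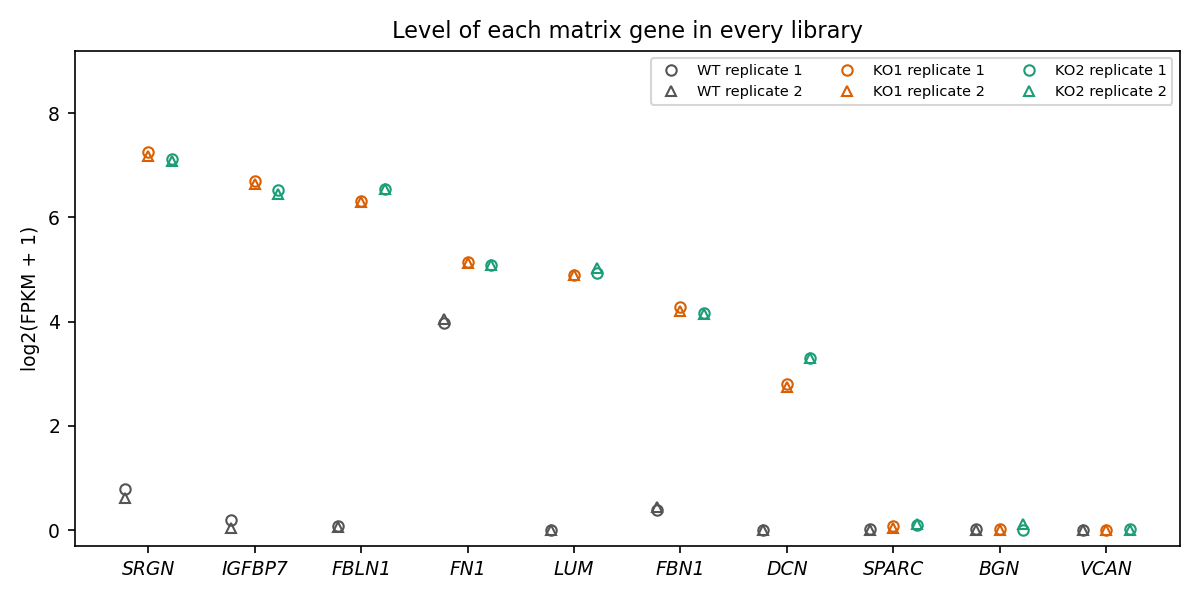
Level of each of the 10 matrix genes in every library, as log2(FPKM + 1) on the vertical axis, with 1 point per library and colours for WT, KO1 and KO2. FN1 is the only gene of the 10 above 1 FPKM in WT; 7 genes are high in all 4 knockout libraries, and SPARC, BGN and VCAN lie near 0 in all 6.

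Lumican and decorin lie side by side on chromosome 12 and went from nothing or nearly nothing to clear expression. LUM (ENSG00000139329, GRCh38 chr12:91102629-91111831, minus strand) had 0 reads in either WT library. Its level was 28.8 and 28.8 FPKM in KO1 and 29.4 and 31.5 FPKM in KO2, from 1735 to 2018 reads. Against a floor of 3 reads per WT library, the knockout mean of 29.6 FPKM was at least 589-fold higher.

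DCN (ENSG00000011465, chr12:91140484-91183123, minus strand) had 0 reads and 1 read in the WT libraries. It was at 5.99 and 5.69 FPKM in KO1 and at 8.87 and 8.93 FPKM in KO2. The ratio of its reads per depth, knockout over WT, was 3712 with a 95% counting interval of 666 to 146618, which covers counting error only. Without WT replicate 2, which held the only WT read, the ratio becomes a lower bound of 682-fold.

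BGN, the third small leucine-rich proteoglycan among the members (ENSG00000182492, chrX:153494939-153509554, plus strand), did not follow them. Its reads were 1 and 0 in WT, 1 and 0 in KO1, and 0 and 4 in KO2. Both sides are at or under the floor, so no fold is given. BGN overlaps HAUS7, a gene on the opposite strand, and no source used here says whether reads were counted by strand.

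Serglycin was the most abundant of the 10 in both knockout groups. SRGN (ENSG00000122862, chr10:69088106-69104811, plus strand) was at 0.721 and 0.535 FPKM in WT, from 19 and 12 reads. It was at 152 and 145 FPKM in KO1 and at 138 and 134 FPKM in KO2. The knockout mean was 226-fold the WT mean (6.46 ± 0.05 on the log2(FPKM + 1) scale, ± SE), and WT and knockout libraries were far from overlapping. Log2 differences on this scale understate the change of genes that are low in 1 group.

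VCAN, the hyaluronan-binding member (ENSG00000038427, chr5:83471465-83582303, plus strand), was near 0 in every group. It had 2 and 0 reads in WT, 1 and 0 in KO1, and 3 and 0 in KO2. Serglycin and versican both carry chondroitin sulphate chains. In the knockout libraries SRGN was the highest of the 10 genes, while VCAN and BGN were both at or under the floor, with no order between them.

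Fibronectin was the exception in WT. FN1 (ENSG00000115414, chr2:215360440-215436172, minus strand) was at 14.7 and 15.6 FPKM in WT, which made up most of the summed level of the 10 genes there. It was at 34.5 and 34.1 FPKM in KO1 and at 32.8 and 33.1 FPKM in KO2. The knockout mean was 2.22-fold the WT mean (1.10 ± 0.03 log2). Its ranges did not overlap, and its difference was the smallest among the 7 genes that passed the filter.

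Fibulin 1 and fibrillin 1, both built from repeated EGF-like domains, were low in WT and differed in how far the knockout libraries lay above. FBLN1 (ENSG00000077942, chr22:45502238-45601135, plus strand) had 8 and 5 reads in WT, or 0.0509 and 0.0374 FPKM. It was at 78.5 and 78.1 FPKM in KO1 and at 92.8 and 93.0 FPKM in KO2. Its ratio of reads per depth was 1902 (95% counting interval 1112 to 3571). FBN1 (ENSG00000166147, chr15:48408306-48645849, minus strand) was at 0.300 and 0.363 FPKM in WT from 104 and 107 reads. It was at 18.5 and 17.5 FPKM in KO1 and at 16.9 and 16.8 FPKM in KO2, a knockout mean 52.5-fold the WT mean. In WT the FPKM of fibrillin 1 was above that of fibulin 1, with a ratio of 5.90 and 9.71, and in the knockout libraries it was below, with a ratio between 0.181 and 0.236.

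IGFBP7 (ENSG00000163453, chr4:57030773-57110385, minus strand) had 6 reads and 1 read in the WT libraries. It was at 103 and 98.3 FPKM in KO1 and at 91.7 and 86.5 FPKM in KO2. Its ratio of reads per depth was 1053 (95% counting interval 511 to 2619). The size of that fold rests on few WT reads: the ratio of mean FPKM was 1103 with both WT libraries, 3366 without WT replicate 1 and 659 without WT replicate 2. IGFBP7 overlaps POLR2B, an RNA polymerase II subunit gene on the opposite strand that had 5463 and 4740 reads in WT and 2802 to 3409 in the knockout libraries. POLR2B was thus lower where IGFBP7 was higher.

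SPARC (ENSG00000113140, chr5:151661096-151687165, minus strand) had 2 and 0 reads in WT, 6 and 3 in KO1, and 7 and 8 in KO2. Per depth, knockout over WT, its read ratio was 5.69 with a 95% counting interval of 1.41 to 49.7. All 4 knockout libraries were above both WT libraries, but the highest, KO2 replicate 2, was at 0.0892 FPKM, well under the filter.

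The order of levels, per kilobase of exon, differed between the groups. In KO1 it ran, from the highest, SRGN, IGFBP7, FBLN1, FN1, LUM, FBN1 and DCN, and for KO2 SRGN, FBLN1, IGFBP7, FN1, LUM, FBN1 and DCN. In both orders no neighbours among these 7 overlapped in their 2 libraries. In WT the order was FN1, SRGN, FBN1, IGFBP7 and FBLN1, of which IGFBP7 and FBLN1 overlapped, and the other 5 genes had 0 to 2 reads per library.

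The difference between the knockout groups is independent of the average rise over WT and was tested. Of the 7 genes that passed the filter, 2 were called at a Benjamini-Hochberg adjusted p below 0.05 in limma, both higher in KO2. In that limma fit 0 were called lower, 1 was lower at an unadjusted p below 0.05, and with voom 1 was called lower. That is 2 of 7, beside 26.2% of all 16046 genes tested (11.2% higher in KO2 and 15% lower) and 30.8% of protein-coding genes, so the share of called members is near the background. Decorin was 1.52-fold higher in KO2 (0.53 ± 0.05 log2, adjusted p = 0.00280 in limma). Fibulin 1 was 1.19-fold higher in KO2 (0.24 ± 0.03 log2, limma adjusted p = 0.00350). Both KO2 libraries were above both KO1 libraries for each of these genes. Across 14 other settings the adjusted p of decorin stayed at or below 0.0280 and that of fibulin 1 at or below 0.0395.

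The other 5 genes were not called between the knockout groups. LUM differed by 0.08 ± 0.04 log2 (limma adjusted p = 0.250) and FN1 by -0.06 ± 0.03 (adjusted p = 0.300). FBN1 differed by -0.09 ± 0.05 (limma adjusted p = 0.242), SRGN by -0.12 ± 0.06 (adjusted p = 0.214) and IGFBP7 by -0.18 ± 0.06 (adjusted p = 0.110). The KO1 and KO2 ranges of these 5 genes were apart. The share of all genes tested with such ranges was not counted, so nothing is read from this. A missed threshold does not show that the groups are alike. IGFBP7 was called lower in KO2 with a replicate block (limma adjusted p = 0.0410) and with voom on recovered reads (adjusted p = 0.00993). The median over the 7 genes was -0.06 log2, and over all genes tested -0.01.

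**Figure D2:**
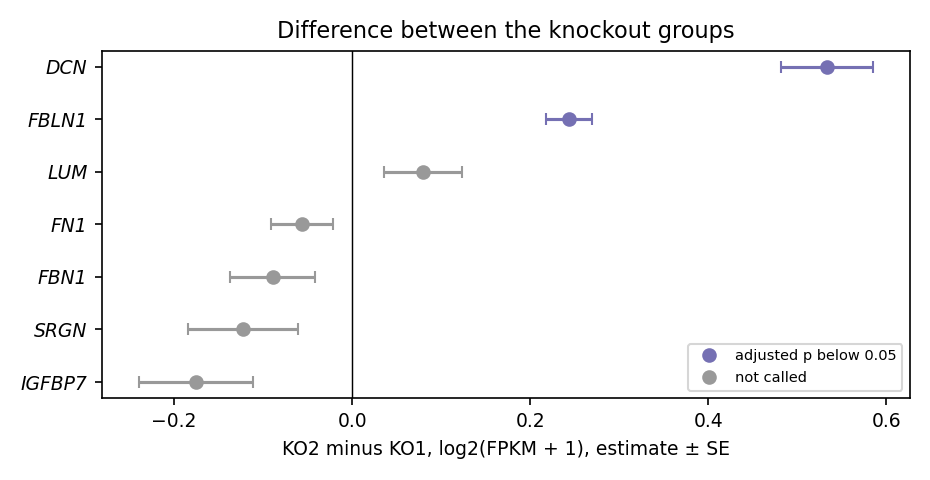
Difference between the knockout groups for the 7 genes that passed the filter, KO2 minus KO1 in log2(FPKM + 1), as estimate and SE from the limma fit. DCN at 0.53 and FBLN1 at 0.24 were called; the other 5 lie between -0.18 and 0.08.

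Decorin and lumican, neighbours in the genome and relatives in sequence family, therefore did not keep a fixed proportion. The ratio of decorin to lumican FPKM was 0.208 and 0.198 in the KO1 libraries and 0.302 and 0.283 in the KO2 libraries, with no overlap. The ratio itself was not tested.

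Promoter sequences help to place these levels beside the DNA. RefSeq promoters (GRCh38.p14, from 250 bases before to 50 bases after the annotated start) were at hand for 6 of the 10 genes: BGN, VCAN, FN1, FBLN1, FBN1 and SPARC. Those of 4 genes with different patterns are printed here: FN1 was expressed in every group, FBLN1 came on in the knockout libraries, and VCAN and SPARC stayed near 0. Capitals mark matches on either strand to TATAA, a core promoter element, to GGGCGG (or CCGCCC), the core letters of the GC box, and to GGAATG (or CATTCC), the letters bound by TEAD factors, the partners of YAP. Sequences run 5′ to 3′ on the strand of the gene.
FN1: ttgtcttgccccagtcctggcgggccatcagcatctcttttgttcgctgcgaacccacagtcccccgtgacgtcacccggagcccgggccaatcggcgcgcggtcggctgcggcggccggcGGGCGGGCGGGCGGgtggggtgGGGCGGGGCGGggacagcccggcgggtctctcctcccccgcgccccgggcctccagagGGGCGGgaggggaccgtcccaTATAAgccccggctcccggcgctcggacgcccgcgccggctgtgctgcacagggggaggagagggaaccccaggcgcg
FBLN1: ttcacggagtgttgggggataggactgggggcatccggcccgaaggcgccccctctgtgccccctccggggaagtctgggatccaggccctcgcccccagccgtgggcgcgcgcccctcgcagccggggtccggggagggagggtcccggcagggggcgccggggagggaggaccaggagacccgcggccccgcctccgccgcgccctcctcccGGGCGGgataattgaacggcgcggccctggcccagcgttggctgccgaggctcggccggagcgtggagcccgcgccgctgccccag
VCAN: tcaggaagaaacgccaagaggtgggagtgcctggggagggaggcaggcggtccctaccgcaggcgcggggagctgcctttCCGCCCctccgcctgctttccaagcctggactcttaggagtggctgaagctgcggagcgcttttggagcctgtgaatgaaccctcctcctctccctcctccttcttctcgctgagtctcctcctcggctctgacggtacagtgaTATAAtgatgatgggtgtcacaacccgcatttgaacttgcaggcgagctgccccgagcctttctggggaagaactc
SPARC: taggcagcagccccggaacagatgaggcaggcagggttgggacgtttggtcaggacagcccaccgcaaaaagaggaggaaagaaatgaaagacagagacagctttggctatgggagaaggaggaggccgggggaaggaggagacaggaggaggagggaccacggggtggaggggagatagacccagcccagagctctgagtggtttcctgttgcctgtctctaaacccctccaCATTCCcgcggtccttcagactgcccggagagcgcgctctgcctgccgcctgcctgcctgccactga

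The FN1 promoter shown lies at chr2:215436019-215436318, that of FBLN1 at chr22:45502633-45502932, that of VCAN at chr5:83471494-83471793 and that of SPARC at chr5:151686866-151687165. The sequence of FN1 held TATAA at position -28 from the start, and that of VCAN held it at -26, so versican, near 0 in every library, and fibronectin, expressed in every library, share this feature. TATAA is present in 20.4% of 35116 promoters of the same length. FN1 held 6 matches to GGGCGG, of which 3 overlap each other and another 2 overlap each other, BGN held 5, and VCAN and FBLN1 held 1 each, against 45.0% of promoters with at least 1. GGAATG was found in FBN1 at position -58 and, on the other strand, in SPARC at -17, against 14.0% of promoters. None of the 6 sequences held TGANTCA (AP-1 sites), CACCTG (an E-box of SNAI and ZEB factors) or CAGACA (SMAD sites), which occur in 7.71%, 20.6% and 16.9% of promoters. GC content was 76.7% in FN1, 78.0% in FBLN1, 68.3% in FBN1, 71.7% in BGN, 61.3% in SPARC and 60.3% in VCAN, beside a median of 58.7% over all promoters. The observed over expected CpG ratio was 0.864, 0.768 and 0.750 in FN1, FBLN1 and FBN1, and 0.549, 0.510 and 0.401 in VCAN, BGN and SPARC, beside a median of 0.579. Of these 6, the 3 genes expressed in the knockout libraries had the 3 highest ratios, which is a description of 6 sequences. The expressed members LUM, DCN, SRGN and IGFBP7 had no promoter at hand and are not part of it. A match is only a run of letters, and a missing match says nothing of the factor.

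Genes around the members went in both directions. Within 500 kb of the 10 genes lie 86 other protein-coding genes, of which 49 were tested, and in the knockout average against WT 21 of them were higher, 25 lower and 3 not called. That is 42.9% higher, beside 40.5% of all protein-coding genes tested (45.8% were lower), and their median was -0.22 log2. Around lumican and decorin no other gene was expressed: KERA, encoding keratocan, and CCER1 had 0 reads, and EPYC, encoding epiphycan, was at 0.0257 FPKM in WT. Beside FN1, ATIC, a purine synthesis gene, fell (-0.78 ± 0.03 log2), as did ABCA12, a lipid transporter gene (-1.54 ± 0.07). All 3 tested neighbours of IGFBP7 fell, REST, NOA1 and POLR2B, from -0.73 to -0.78 log2. All 5 tested neighbours of SPARC fell as well, from -0.36 to -2.04 log2. Neighbours of SRGN were 6 higher, 2 lower and 1 not called, with a range of -0.80 to 1.41 log2. Of 5 tested neighbours of FBN1 4 were higher and 1 lower, with a median of 0.32 log2. Those of FBLN1 were 2 higher and 4 lower, and those of BGN 8 higher, 8 lower and 1 not called, from -1.37 to 3.63 log2. The members were chosen with their own difference from WT known, so nothing is read from the contrast between members and neighbours.

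**Figure D3:**
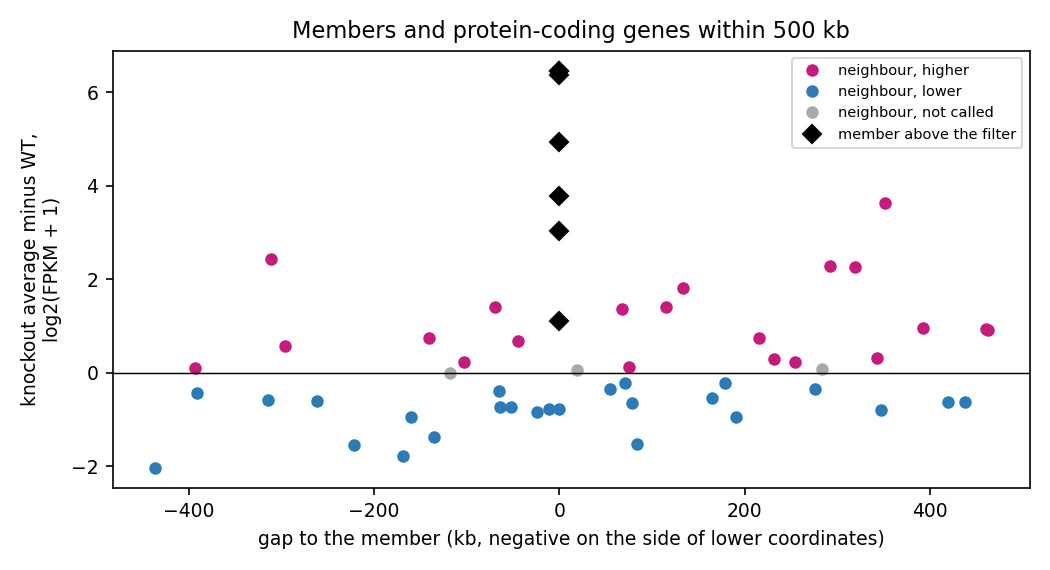
Protein-coding genes within 500 kb of the 10 genes, with the gap to the member in kb on the horizontal axis and the knockout average minus WT in log2(FPKM + 1) on the vertical axis. The 7 members above the filter (black) lie between 1.10 and 6.46, and the 49 tested neighbours between -2.04 and 3.63.

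The genes with the most similar pattern were found by Euclidean distance over log2(FPKM + 1) in the 6 libraries, among 19941 protein-coding genes. SLC12A3, a salt cotransporter gene, was nearest to LUM at a distance of 0.157, and TWIST2, a mesenchymal transcription factor gene, was nearest to DCN at 0.201. COL7A1 was nearest to SRGN (0.552), INSIG1 to FN1 (0.175) and CSPG4 to FBN1 (0.254). The nearest gene to both FBLN1 and IGFBP7 was GAGE2A, which has near-identical copies, so its level is uncertain. TWIST2 was at 0 FPKM in WT, at 6.30 and 6.40 FPKM in KO1 and at 8.09 and 8.66 FPKM in KO2, the same order of groups as decorin. It was picked for its likeness to decorin in these libraries, so the shared order is not a separate result. For BGN, VCAN and SPARC 217, 4302 and 121 genes lay within a distance of 0.1, all near 0, so the single nearest gene carries no information.

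Other matrix genes were counted in the same fit in 11 lists, 196 genes in all, of which 117 passed the filter. In the knockout average against WT 72 rose, 39 fell and 6 were not called, with a median of 0.66 log2, beside 40.5% of all genes tested called higher, 40.1% called lower (80.6% in either direction) and a median of 0.02. Of protein-coding genes tested 40.5% were called higher and 45.8% lower (86.3% in either direction). Between the knockout groups 29 were higher in KO2 (24.8%), 37 lower (31.6%) and 51 not called, beside 11.2% higher and 15% lower over all genes tested. Over protein-coding genes these shares were 13.1% higher and 17.7% lower. The 29 became 15 without KO1 replicate 1 or 2, 13 without KO2 replicate 1 and 17 without KO2 replicate 2. The lists were written with earlier results of these data known, so these counts describe them and test nothing about them as lists.

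**Figure D4:**
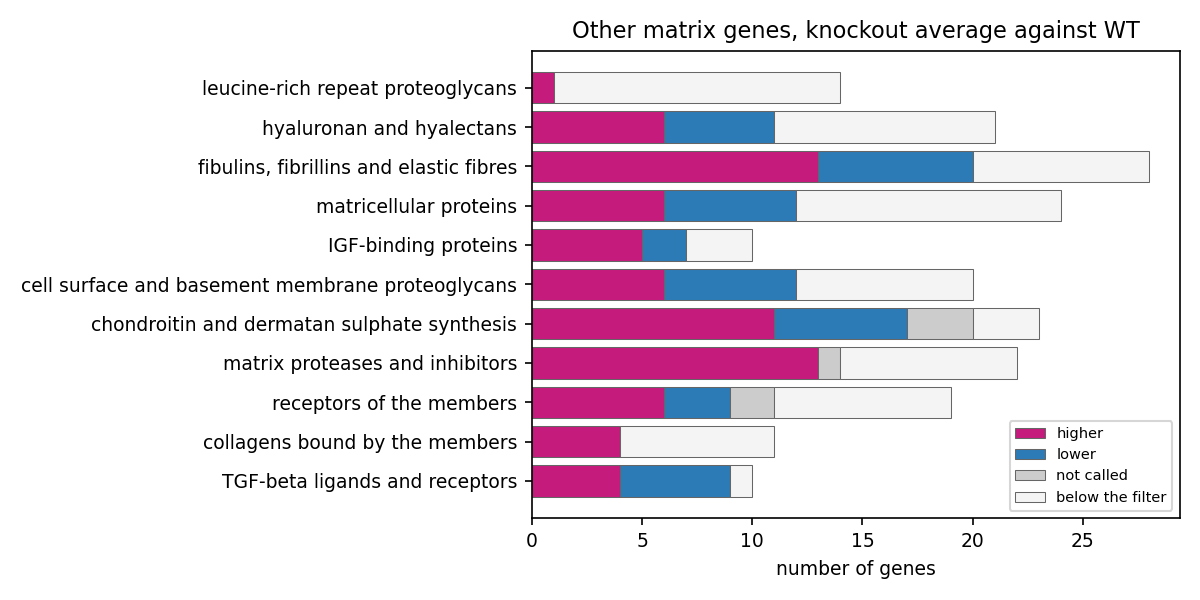
Number of genes in each of 11 lists of other matrix genes that were called higher, called lower, not called, or below the filter, for the knockout average against WT. Elastic fibre genes (13 higher, 7 lower) and matrix proteases and inhibitors (13 higher, 0 lower) held the most genes called higher.

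Among 14 other small leucine-rich genes only TSKU, encoding tsukushi, passed the filter. It rose from 19.5 ± 0.675 FPKM in WT to 56.0 ± 0.172 FPKM in KO1 and 45.5 ± 0.281 FPKM in KO2 (SD, n = 2 each; limma Benjamini-Hochberg adjusted p = 1.10e-06). Lumican and decorin were thus accompanied by 1 called relative, which unlike them was well expressed in WT.

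Of 21 genes of hyaluronan and the versican family, 11 were tested, 6 rose and 5 fell. With either WT library left out, genes that reach 1 FPKM only in WT do not pass the filter, so fewer falls could be counted. HYAL1, a hyaluronidase gene, rose 11.2-fold from 2.03 ± 0.198 FPKM, and CD44, the hyaluronan receptor gene, rose 3.83-fold from 5.39 ± 0.383 FPKM. CEMIP, which encodes a hyaluronan-degrading protein, fell from 37.9 ± 0.962 to 0.796 ± 0.164 FPKM in KO1 and 0.641 ± 0.267 FPKM in KO2. TNFAIP6, whose product links hyaluronan to proteins, had 0 reads in WT and reached 1.66 ± 0.128 FPKM in KO1 and 0.232 ± 0.0380 FPKM in KO2.

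The chondroitin and dermatan sulphate chains of decorin, biglycan, versican and serglycin are made by a set of enzymes, and 20 of 23 genes of that list were tested: 11 rose, 6 fell and 3 were not called. With library size as the only scaling the split was 12 higher and 4 lower, and without WT replicate 2 the number that fell was 3. DSEL, a dermatan sulphate epimerase-like gene, went from 0 reads in WT to 6.69 ± 0.0326 FPKM in KO1 and 10.5 ± 0.694 FPKM in KO2, at least 541-fold for the knockout mean. Its paralog DSE rose 2.98-fold and was higher in KO2 than in KO1 (0.85 ± 0.08 log2, limma adjusted p = 0.00265). CSGALNACT1, which starts chondroitin chains, rose 10.3-fold, CHPF2, a chondroitin polymerizing factor gene, 5.43-fold, and UGDH, the enzyme gene for the UDP-glucuronate precursor, 3.38-fold.

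In the list of fibulins, fibrillins and elastic fibre genes, 20 of 28 were tested, 13 rose and 7 fell, with a median of 1.09 log2. FBN2, the fibrillin 1 paralog, rose from 0.0463 ± 0.0188 FPKM in WT to 11.4 ± 0.443 FPKM in KO1 and 17.3 ± 0.258 FPKM in KO2. FBLN2 had 9 WT reads and rose to 7.50 ± 0.373 FPKM in KO1 and 13.6 ± 0.648 FPKM in KO2. Both were higher in KO2 than in KO1, FBN2 by 0.56 ± 0.05 log2 and FBLN2 by 0.78 ± 0.06 (limma adjusted p = 0.00203 and 0.00155). EFEMP1, encoding fibulin 3, went the other way between the knockout groups, with 0 reads in WT, 5.61 ± 0.261 FPKM in KO1 and 2.80 ± 0.351 FPKM in KO2 (-0.80 ± 0.09 log2, limma adjusted p = 0.00359). Of the lysyl oxidases, which cross-link elastin and collagen, LOXL2 rose 169-fold from 0.154 ± 0.0114 FPKM, while LOXL4 fell from 52.0 ± 1.14 FPKM to 2.23 ± 0.363 in KO1 and 0.993 ± 0.160 FPKM in KO2.

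SPARC stayed near 0 while relatives moved. Of 24 matricellular genes 12 were tested, 6 rose and 6 fell. The number that fell was 10 with no filter on low values and 3 with a filter of 5 FPKM. SMOC1, which encodes a SPARC-related modular protein, had 3 reads in WT and reached 73.2 ± 0.246 FPKM in KO1 and 74.6 ± 0.419 FPKM in KO2, a ratio of reads per depth of 4298 with a 95% counting interval of 1470 to 20841. CCN5 had 6 WT reads and was at 37.4 ± 0.0161 FPKM in KO1 and 66.1 ± 3.97 FPKM in KO2. FSTL1, a follistatin-like gene of the SPARC family, rose 17.4-fold and THBS3, a thrombospondin gene, 5.33-fold, while CCN3 fell from 30.5 ± 0.0817 FPKM to 1.99 ± 0.113 in KO1 and 0.583 ± 0.283 FPKM in KO2.

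IGFBP7 stood in a family that split. Of 10 other genes of insulin-like growth factor binding proteins 7 were tested, 5 rose and 2 fell. IGFBP2 reached 1 FPKM only in WT, so with either WT library left out it did not pass the filter and was not tested. IGFBP1 went from 0 reads in WT to 43.1 ± 0.770 FPKM in KO1 and 23.1 ± 1.83 FPKM in KO2, and IGFBP3 from 2.41 ± 0.383 to 71.7 ± 0.906 and 41.7 ± 1.73. IGFBP2 fell from 10.1 ± 0.210 FPKM to 2 reads over the 4 knockout libraries. IGFBP6 fell from 312 ± 6.80 FPKM to 49.7 ± 0.0457 in KO1 and 19.5 ± 2.91 FPKM in KO2. IGFBP1, IGFBP3 and IGFBP6 were each lower in KO2 than in KO1, at -0.87, -0.77 and -1.31 log2 (limma adjusted p = 0.00126, 0.00348 and 0.00142).

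**Figure D5:**
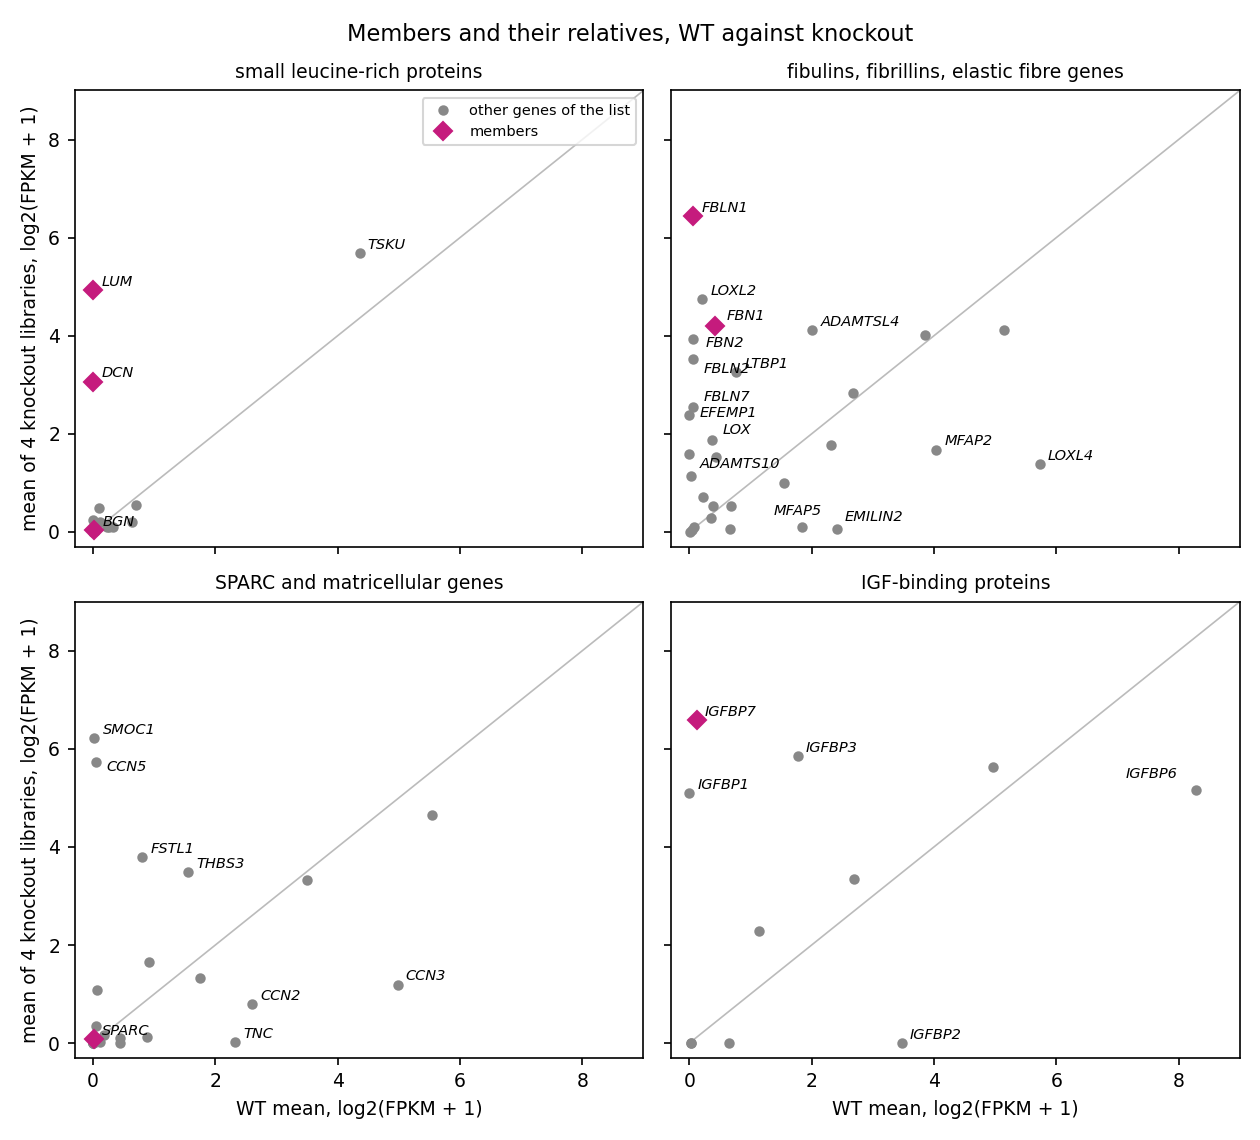
WT mean against the mean of the 4 knockout libraries, both as log2(FPKM + 1), for members (diamonds) and other genes (points) of 4 families; the grey line marks equal levels and the genes furthest from it are named. LUM, DCN, FBLN1, FBN1 and IGFBP7 lie far above the line with WT values near 0, BGN and SPARC lie at the origin, and LOXL4, CCN3, IGFBP2 and IGFBP6 lie below the line.

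Among 20 genes of cell surface and basement membrane proteoglycans, 12 were tested, 6 rose and 6 fell. CSPG4, the NG2 proteoglycan gene, rose 64.0-fold from 0.297 ± 0.0254 FPKM, and HSPG2, the perlecan gene, 2.83-fold from 7.55 ± 0.318. SDC1, the syndecan 1 gene, fell from 63.8 ± 1.57 FPKM to 21.1 ± 0.147 in KO1 and 24.7 ± 0.00125 FPKM in KO2. SDC4 was at 90.9 ± 1.48 FPKM in WT, at 83.1 ± 3.60 in KO1 and 34.8 ± 1.13 FPKM in KO2.

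Receptors of the members also split, with 6 higher, 3 lower and 2 not called among 11 tested of 19. ITGA5, the fibronectin receptor subunit gene, rose 6.27-fold from 8.35 ± 0.00948 FPKM to 51.4 ± 1.23 in KO1 and 53.3 ± 1.20 FPKM in KO2. LRP1, an endocytic receptor gene for decorin among other ligands, rose 2.55-fold. ITGB6 and ITGB8, integrin subunits that bind latent TGF-beta, fell, ITGB6 from 18.9 ± 1.42 to 0.203 ± 0.0618 FPKM in KO1 and 0.0499 ± 0.0218 FPKM in KO2. Decorin binds TGF-beta, and fibrillin microfibrils hold its latent form. Of 9 tested genes of TGF-beta ligands and receptors 4 rose and 5 fell, with differences from -4.17 to 2.49 log2. Among those called alike in both knockout groups, BAMBI and TGFBR3 had the largest differences. Next to them, ENG rose 4.82-fold, and TGFB2 fell from 15.4 ± 0.0826 to 5.04 ± 0.140 and 3.15 ± 0.114 FPKM.

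Collagens that the members bind were counted beside them. Of 11 such genes 4 were tested and 4 rose, with a median of 3.46 log2: COL5A1, COL6A1, COL1A1 and COL5A3. COL1A1 was at 0.777 ± 0.0923 FPKM in WT, at 9.21 ± 0.225 in KO1 and 15.6 ± 0.261 FPKM in KO2. It was higher in KO2 than in KO1 (0.70 ± 0.05 log2, limma adjusted p = 0.00162), in the same direction as decorin and fibulin 1, while COL5A1 was lower (-0.19 ± 0.02, adjusted p = 0.00658). COL1A2 and COL3A1, partners of type I and type III fibrils, did not pass the filter.

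Matrix proteases and their inhibitors were higher as well: of 14 tested of 22 genes, 13 rose, 0 fell and 1 was not called, with a median of 1.46 log2. In limma 1 was lower at an unadjusted p below 0.05, and 1 fell without WT replicate 1, with voom on recovered reads or with a filter of 5 FPKM, under which 7 rose. With no filter 14 rose and 2 fell. TIMP3, a matrix-bound metalloproteinase inhibitor gene, had 2 reads in WT and reached 17.7 ± 0.00165 FPKM in KO1 and 18.0 ± 0.200 FPKM in KO2. ADAMTS1, a versican-cleaving protease gene, had 0 reads in WT and reached 4.16 ± 0.0154 FPKM in KO1 and 4.20 ± 0.198 FPKM in KO2, while versican itself stayed near 0. ADAMTS15 rose 7.42-fold and MMP15 3.88-fold.

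Markers of cells that commonly make these genes were checked in every library. Of 10 fibroblast markers 0 reached 1 FPKM in WT (summed level 0.846 to 0.952 FPKM), 1 in KO1 (COL1A1, 10.3 to 10.5) and 2 in KO2 (COL1A1 and PDGFRB, 17.2 to 17.7), and PDGFRA and DPT had 0 reads in all 6 libraries. The others stayed under 1 FPKM. COL3A1 had 2 reads over the 2 WT libraries and 184 over the 4 knockout libraries, FAP 3 and 151, and COL1A2 0 and 10. In the same order COL6A3 had 24 and 4, THY1 6 and 4, and TCF21 5 and 9. The 7 smooth muscle and pericyte markers summed to 40.7 to 42.7 FPKM in WT and 39.2 to 43.1 in the knockout libraries, but single markers differed. MCAM, an adhesion molecule gene, rose from 0.104 ± 0.0120 FPKM (SD, n = 2) to 20.2 ± 1.22 (n = 4), and DES, the desmin gene, rose 2.10-fold from 1.47 FPKM. NOTCH3 fell from 39.1 ± 1.61 FPKM to 16.7 ± 0.448, and ACTA2, which was not tested, was at 0.110 and 0.124 FPKM in WT and 0.133 to 0.771 in the knockout libraries. The 15 leukocyte markers, for cells in which serglycin is abundant, summed to 1.87 to 1.94 FPKM in WT, 2.89 to 3.21 in KO1 and 4.22 to 4.41 in KO2, and PRF1, TPSAB1, CMA1 and MPO had 0 reads in the knockout libraries. PTPRC, the common leukocyte antigen gene, had 1 read over the 4 knockout libraries, beside 14680 reads of SRGN. The 7 endothelial markers summed to 0.504 to 0.619 FPKM in WT and 0.705 to 0.798 in the knockout libraries, with EMCN at 0 throughout and KDR and TEK at 0 in the knockouts. CDH5, the VE-cadherin gene of that list, had 3 reads in WT and 333 in the knockout libraries, a read ratio per depth of 52.7 (95% counting interval 17.9 to 257), and stayed under 1 FPKM. The 5 mesothelial markers summed to 158 to 171 FPKM in WT, 118 to 119 in KO1 and 84.9 to 86.7 in KO2, and WT1 had 0 reads. The part of other cell types in the levels of the 10 genes was not tested.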

How the data were processed

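Total RNA of 6 libraries labelled NCI-N87, 2 each of WT, KO1 and KO2, was sequenced. The deposited FPKM values were computed by the authors before deposit, with HISAT2 2.0.5, featureCounts 1.5.0-p3 and build hg38 named in the submitters' processing notes. Strand setting, multi-mapped reads and annotation are not given in the sources used. GENCODE release 29 held all 58735 IDs, and its names, exon lengths and coordinates were used. Values times exon length were whole multiples of 1 step per library (100% of values, tolerance 0.1), which gave reads and depths of 17599759 to 22852340. Genes with at least 1 FPKM in 2 libraries (16046) were fitted as log2(FPKM + 1) in limma 3.58.1 (R 4.3.3; group means, trend, all 6 libraries, no covariate), with Benjamini-Hochberg adjustment over all genes and calls below 0.05. The fit was tested on simulated data. Counting intervals are exact at 95%, and the floor is 3 reads per library; both cover counting error only, since reads are not independent molecules. Alternatives were pseudocounts of 0.1 and 0.5, other filters, other scalings, limma voom with TMM scaling on recovered reads, a replicate block and each library left out. Members, lists and tests were chosen with earlier results of these data known. From each list up to 4 genes with the largest knockout difference called alike in both groups, and up to 2 with the largest called KO2 minus KO1 difference, could be named. Reads shared between near-identical copies or overlapping genes cannot be separated.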

Additional observations from a re-analysis of the deposited data

Results flagged for a closer look

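The results below are listed because the 2 knockout groups differed by a direct test, although both carry the same label of genotype. The test was KO2 minus KO1 in limma on log2(FPKM + 1), with a Benjamini-Hochberg adjusted p below 0.05 over all genes. It called 26.2% of all 16046 genes tested and 30.8% of protein-coding genes, so a call alone does not set a gene apart. Among the members these were DCN, higher in KO2 by 0.53 log2, and FBLN1, higher by 0.24. Among the other matrix genes named, KO2 minus KO1 was positive, in log2, for THBS3 1.06, DSE 0.85, CCN5 0.80, FBLN2 0.78, COL1A1 0.70, DSEL 0.58, FBN2 0.56, CSPG5 0.53, HSPG2 0.39, LRP1 0.26, SDC1 0.22 and COL6A1 0.20. It was negative for IGFBP6 -1.31, SDC4 -1.23, TNFAIP6 -1.11, TGFBR1 -1.06, CCN3 -0.93, IGFBP1 -0.87, ADAMTS20 -0.83, EFEMP1 -0.80, CHST15 -0.79, IGFBP3 -0.77, LOXL4 -0.70, FSTL1 -0.63, MMP15 -0.59, ITGB8 -0.55, TGFB2 -0.54, CD44 -0.51, COL5A3 -0.47, TSKU -0.29, COL5A1 -0.19 and CHPF2 -0.14. Of the 4 collagen genes tested, COL1A1 and COL6A1 were higher in KO2, as decorin was, and COL5A1 and COL5A3 were lower. The binding protein genes IGFBP1, IGFBP3 and IGFBP6 were lower in KO2.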

How the results depend on the processing

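Across 14 alternatives the 7 members above the filter kept their direction against WT, but 76 of 294 of their differences moved by more than the spread between replicates. The knockout average minus WT ranged from 4.91 to 11.80 log2 for LUM, 3.02 to 11.10 for DCN, 6.36 to 10.82 for FBLN1, 6.39 to 10.15 for IGFBP7, 6.38 to 7.78 for SRGN, 3.75 to 5.73 for FBN1 and 1.06 to 1.24 for FN1. The number of members called between KO2 and KO1 was 2 in 12 alternatives and 3 in the replicate block and in voom, which added IGFBP7. Of the other matrix genes, the number higher in KO2 than in KO1 was 29 with all libraries and ranged from 13 to 26 when each library was left out in turn (13 without KO2 replicate 1, 15 without KO1 replicate 1 or 2, 17 without KO2 replicate 2). The number lower than WT was 39, and 60 with no filter on low values. A gene that reaches 1 FPKM only in WT does not pass the filter once 1 WT library is left out. Of the 39 genes, 9 were then no longer tested, whichever WT library was left out. With a replicate block 24 were higher and 33 lower in KO2, and 72 were higher and 39 lower than WT. The replicate numbers did not pair the samples: the correlations of same-numbered deviations were 0.02, 0.00 and -0.04. Library size as the only scaling raised the median of all genes by 0.12 log2. COL5A3 lost its call between KO2 and KO1 without WT replicate 1 or 2, KO1 replicate 1 or 2 or KO2 replicate 2, with a pseudocount of 0.1 and with no filter (limma adjusted p = 0.0516 to 0.107). CSPG5 lost it without WT replicate 1 or 2 or KO1 replicate 1 or 2 and with no filter (0.0527 to 0.0893). The causes were not tested. Within lists, the filter on low values moved further counts by over 1.5 times. With no filter 3 small leucine-rich genes rose and 4 fell, 6 receptors fell and 1 collagen fell. With a filter of 5 FPKM 3 hyaluronan genes and 3 elastic fibre genes fell, and 3 surface proteoglycan genes rose. BGN and VCAN had too few reads for a difference to be detectable at this depth. SPARC had 2 reads in WT and 24 in the knockout libraries, and the interval of its read ratio, 1.41 to 49.7, covers counting error only. The size of its difference is poorly known, and the contrast with WT was used in choosing the members and was not tested.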
